A study of Mus musculus with 28 samples.

Results

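Ucp1 and 9 further genes that are known from heat-producing (thermogenic) fat were followed through the healing of mouse skin wounds. The 10 genes were Ucp1, Dio2, Cidea, Cox8b, Cox7a1, Ppargc1a, Zic1, Adrb3, Kcnk3 and Otop1. Ucp1 was taken because its increase over day 0 was among the largest in these libraries on several days, and the other 9 because they are known in thermogenic fat. All 10 were present among the 29068 genes of the count table, and all 10 were among the 18107 genes with enough counts to be tested. Because Ucp1 was chosen on the comparison with day 0, differences from day 0 are given for these genes as a description, in levels, fold changes and a count of genes past a limit, and no p-value is given for them. For these 10 genes, results are drawn only from tests between later days. Calls of other gene lists against day 0 are likewise given as a description.

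The libraries came from whole wound sites, scab and epithelial margins included, of C57BL/6J (MLKL+/+) mice, that is, mice wild type for the necroptosis gene Mlkl, which were 8 weeks old and of both sexes. A punch biopsy down to the fascia of the back made the wound. RNA was sequenced from 4 libraries each at day 0, which the labels name the control, and at days 3, 5, 7, 10, 12 and 14, so that 28 libraries shared genotype, strain and age and differed by day. The study's methods count the day of injury as day 1 and list it as the first sampling, so the labels leave it unsettled whether day 0 was unwounded or freshly wounded skin. The labels also do not say that the 4 libraries of a day came from separate animals, and p-values measure only the spread between these libraries.

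Library totals ranged from 36706513 to 40655764 counts. Values in single libraries are given as raw counts, while fold changes and tests use counts normalised for library size and composition, which can decide whether close ranges overlap. The day 0 libraries varied more than the rest, with a common coefficient of variation between libraries (from edgeR) of 26.5% against 5.77% to 10.8% on the later days. They also split in tissue make-up, with a summed level of 4 fibroblast markers of 5903 and 5724 FPKM in Day0 replicates 2 and 3 against 2490 and 1551 FPKM in replicates 1 and 4. The sum of 4 keratinocyte markers was 1438 and 1517 FPKM in replicates 2 and 3 against 2730 and 3038 FPKM in the other pair. The samples held fat throughout, since Adipoq, the fat cell hormone adiponectin, averaged between 363 FPKM (read counts scaled by gene length and library total) on day 12 and 573 FPKM on day 14. They also held striated muscle, and Acta1, the actin of skeletal muscle, averaged 4221 ± 1051 FPKM (SD, n = 4) on day 0 and 850 ± 51.7 FPKM on day 7. In such bulk tissue, fewer cells of a type and less RNA per cell cannot be told apart.

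Thermogenic fat burns fuel to make heat. Its mitochondria carry UCP1, a protein of the inner membrane that lets protons flow back without making ATP. Noradrenaline from sympathetic nerves acts on the adrenergic receptor encoded by Adrb3, raises cyclic AMP and releases fatty acids, which both fuel and open UCP1. Brown fat depots are built for this pathway, and clusters of beige cells in white fat can take it up when stimulated. Cyclic AMP also acts on transcription through factors that bind the cAMP response element, and in this pathway Ucp1, Dio2 and Ppargc1a are among its textbook targets.

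The promoters of those targets are shown because they carry the core of that element. RefSeq start sites (GRCm38.p6) were matched for 7 of the 10 genes, and Cidea, Adrb3 and Kcnk3 had no entry. The core TGACG was searched on both strands in the 250 bases before each start site, together with the full element TGACGTCA, which contains the core. The core was found before 3 of the 7 starts (Ucp1, Dio2 and Ppargc1a) and in 17.8% of 32851 mouse promoter windows of the same length, and the full element before 1 of the 7 (Dio2) and in 1.55% of all windows. The last 200 bases before each start are printed on the strand of the gene, with the match in capitals, at chr8:83290148-83290347 (plus strand) for Ucp1, chr12:90739039-90739238 (minus strand) for Dio2 and chr5:51567726-51567925 (minus strand) for Ppargc1a.
Ucp1: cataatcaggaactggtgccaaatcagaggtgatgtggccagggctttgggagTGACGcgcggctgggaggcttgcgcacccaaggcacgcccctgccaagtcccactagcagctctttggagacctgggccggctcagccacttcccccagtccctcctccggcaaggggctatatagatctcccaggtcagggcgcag
Dio2: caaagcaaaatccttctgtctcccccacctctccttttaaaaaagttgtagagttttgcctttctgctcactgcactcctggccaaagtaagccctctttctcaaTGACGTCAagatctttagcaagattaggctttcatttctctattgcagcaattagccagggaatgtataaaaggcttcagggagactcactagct
Ppargc1a: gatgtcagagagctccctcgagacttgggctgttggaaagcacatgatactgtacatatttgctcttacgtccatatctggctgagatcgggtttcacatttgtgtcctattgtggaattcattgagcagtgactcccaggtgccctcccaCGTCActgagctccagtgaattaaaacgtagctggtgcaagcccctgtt
The match ended 143 bases before the start in Ucp1, 88 in Dio2 and 45 in Ppargc1a, where it lay on the other strand. Distances are counted from RefSeq starts, which can differ from the GENCODE gene positions given below. The Dio2 start used here lies upstream of its GENCODE gene (chr12:90724552-90738438), so its distance does not hold from there. These are matches of letters, and binding was not measured.

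Ucp1 itself (chr8:83290352-83298452, GRCm38, plus strand, protein-coding) encodes the uncoupling protein. Its counts in the 4 libraries were 6, 15, 49 and 37 on day 0 and 27008, 34661, 35834 and 35042 on day 3. They were 65266, 67501, 69142 and 73798 on day 5. Every later library lay above every day 0 library, and the day 5 libraries were the highest of all. The counts were 19838, 23031, 21792 and 22947 on day 7 and 11759, 12021, 12774 and 11737 on day 10. On day 12 they dropped to 227, 473, 297 and 312, and on day 14 they were back at 24000, 26142, 19612 and 18417. The day 12 libraries thus lay between day 0 and all other wound days, with no overlap on either side.

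Per length, Ucp1 averaged 0.42 ± 0.31 FPKM (SD, n = 4) on day 0, 516 ± 63.5 on day 3 and 1054 ± 66.4 on day 5. Later means were 333 ± 21.1 FPKM at day 7 and 187 ± 6.81 at day 10, followed by 4.93 ± 1.54 at day 12 and 345 ± 57.8 at day 14. In the order of levels, day 5 was followed by day 3, then by days 14 and 7, whose libraries overlapped, and then by days 10, 12 and 0. By mean FPKM Ucp1 held rank 45 among all genes of the table on day 5, rank 8643 on day 12 and rank 14350 on day 0. Its transcripts took between 0.162% and 0.188% of all counts in the day 5 libraries. The log2 fold change over day 0 was 11.33 ± 0.29 (SE) on day 5, 3.40 ± 0.27 on day 12 and 9.55 ± 0.28 on day 14, and the day 0 counts that it rests on were low and spread widely.

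**Figure D1:**
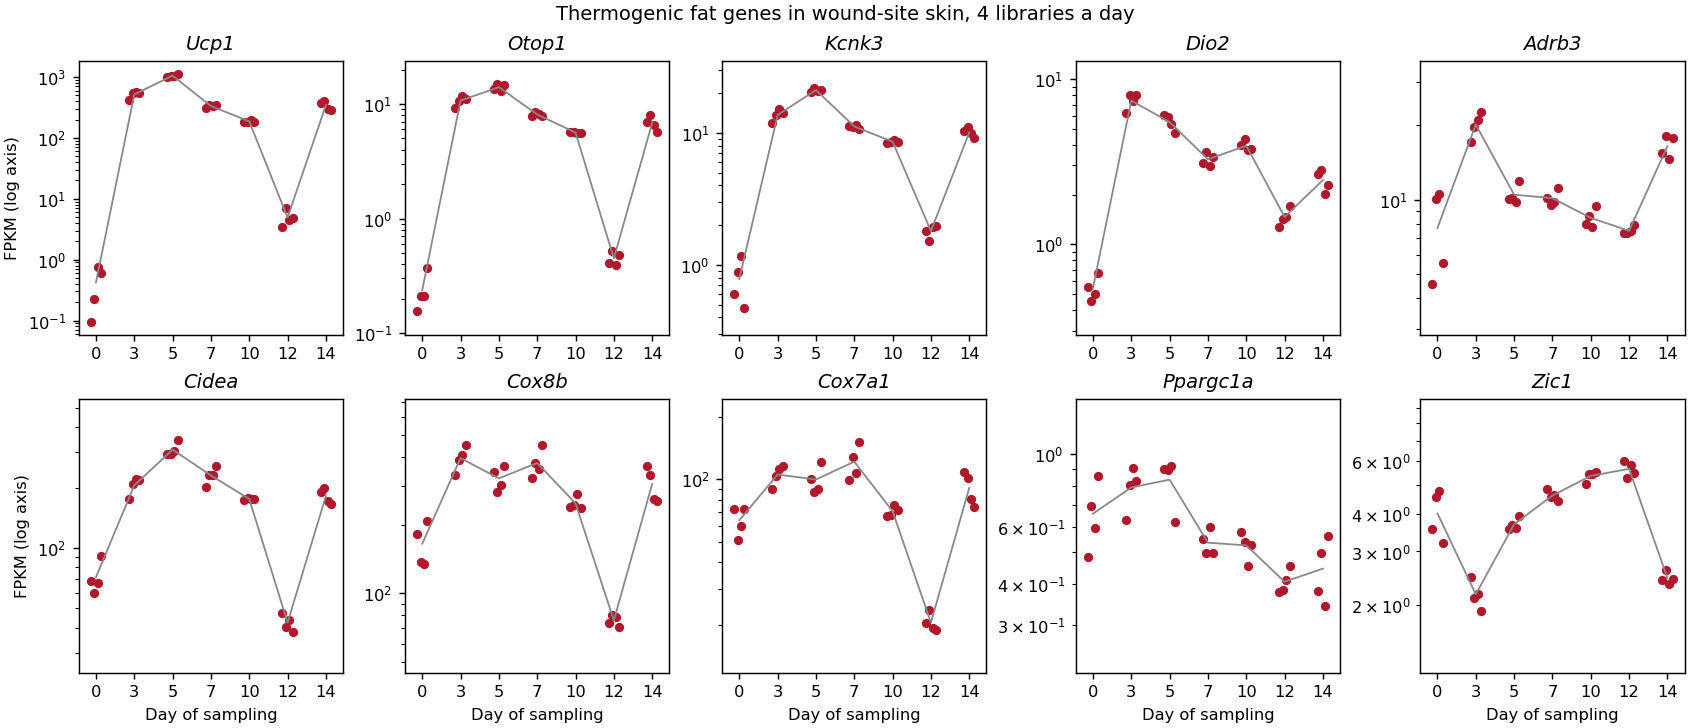
Level of each of the 10 genes (FPKM, log axis) by day of sampling, with 1 point per library, 4 libraries a day, and a line through the day means. Ucp1, Otop1 and Kcnk3 are highest on day 5, and Ucp1 drops to 4.93 FPKM on day 12 and is back at 345 FPKM on day 14.

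Between later days, Ucp1 changed at every step in the quasi-likelihood test of edgeR, after Benjamini-Hochberg adjustment for all 18107 genes. It rose 2.02-fold from day 3 to day 5 (log2 1.01 ± 0.18, adjusted p = 9.23e-05). It then fell 3.26-fold to day 7 (adjusted p = 2.75e-08) and 1.85-fold to day 10 (adjusted p = 0.000301). From day 10 to day 12 it fell 40.4-fold (log2 -5.34 ± 0.22, adjusted p = 2.17e-16), and from day 12 to day 14 it rose 70.7-fold (log2 6.14 ± 0.22, adjusted p = 2.74e-17). The median change of all genes tested was -0.02 and -0.04 in these last steps on the log2 scale.

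All 10 genes varied among the 6 wound days in a joint test, and so did 85.1% of all genes tested. The adjusted p in edgeR's joint F test ran from 1.35e-20 for Otop1 to 3.51e-08 for Ppargc1a. With day 12 left out, all 10 still passed, against 82.5% of all genes.

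From day 10 to day 12, 8 of the 10 genes fell and none rose, where 20.7% of all genes fell and 18.7% rose (adjusted p under 0.05). From day 12 to day 14, 8 rose and 1 fell, where 19.9% rose and 25.3% fell. The median log2 change of the 10 genes was -1.84 and then 2.06. The earlier steps were smaller and more mixed. From day 3 to day 5, 5 of the 10 rose and 2 fell (12.9% and 11.4% of all genes). From day 5 to day 7, 1 rose and 6 fell (13.9% and 14.6%), and from day 7 to day 10, none rose and 6 fell (14.3% and 18.0%).

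**Figure D2:**
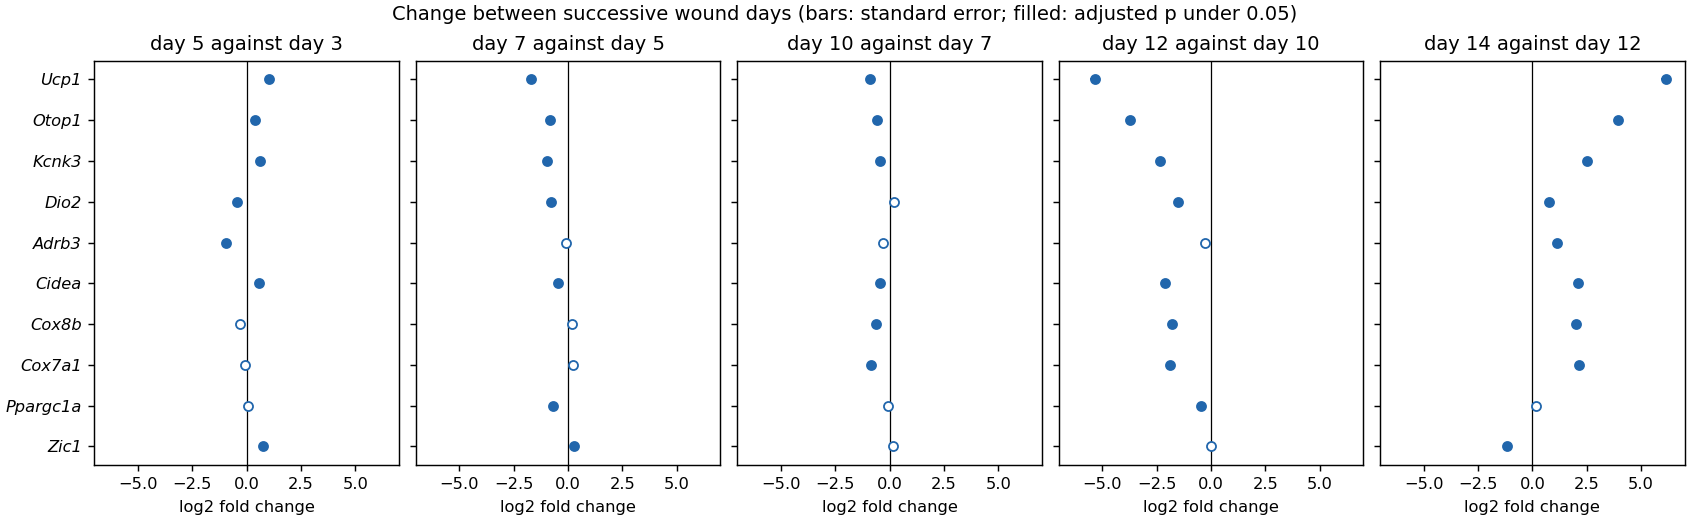
Log2 fold change of the 10 genes between successive wound days, with the standard error as a bar that is mostly hidden by the point and filled points where the adjusted p is under 0.05. On day 12 against day 10 the points run from -5.34 for Ucp1 to -0.01 for Zic1, and on day 14 against day 12 from 6.14 for Ucp1 to -1.19 for Zic1.

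Against day 0, by the study's fold limit (log2 fold change over 1.5) with an adjusted p under 0.05, 5, 5, 5, 4, 1 and 4 of the 10 genes were called higher at days 3, 5, 7, 10, 12 and 14. Of all genes, 6.44%, 5.52%, 4.52%, 4.22%, 3.69% and 5.10% were called higher at these days, and 12.3%, 8.22%, 4.64%, 5.02%, 3.38% and 8.71% lower. Of the 10 genes, only Cox7a1 was called lower, and only on day 12. The genes called higher on days 3, 5 and 7 were Ucp1, Otop1, Kcnk3, Dio2 and Cidea. Ucp1 was among the genes called higher on all 6 days, in the contrast on which it was chosen, and of the other 9 genes, 4, 4, 4, 3, 0 and 3 were called. These counts describe the set and are no evidence about it.

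At the upstream end of the pathway, Adrb3 (chr8:27225776-27250616, minus strand) encodes the receptor for noradrenaline that is typical of mouse fat cells, and it peaked before Ucp1. Its counts were 516, 1183, 1203 and 593 on day 0 and 1936, 2228, 2381 and 2569 on day 3. On day 0 they were higher in replicates 2 and 3, the libraries with the higher fibroblast sums, than in replicates 1 and 4, and the part of tissue make-up in this was not tested. On day 5 they were 1182, 1170, 1129 and 1356. Day 3 had the highest mean of the series, and the day 5 libraries overlapped those of day 0. Adrb3 fell 1.94-fold from day 3 to day 5 (log2 -0.96 ± 0.16, edgeR adjusted p = 4.54e-05), while Ucp1 rose. At the day 12 trough of Ucp1, Adrb3 counts were 852, 862, 876 and 913, after 897, 982, 887 and 1084 on day 10, a difference that did not pass the test (log2 -0.26 ± 0.16, edgeR adjusted p = 0.207), but passed when only the 8 libraries of those days were fitted (log2 -0.25, edgeR adjusted p = 0.0022). All 4 day 12 libraries lay below all 4 of day 10 once normalised for library size and composition, but not in FPKM, which is scaled by library size alone. On day 14 the counts were 1734, 2030, 1674 and 1982, and Adrb3 had risen 2.22-fold (edgeR adjusted p = 1.77e-06). Adrb3 overlaps Gm45470 on the other strand, and whether counting used strand is not stated, so reads of the overlap cannot be assigned.

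Dio2 (chr12:90724552-90738438, minus strand) encodes the deiodinase that makes active thyroid hormone inside brown fat cells. Counts in the 4 libraries were 138, 118, 126 and 158 on day 0 and 1567, 1992, 1842 and 2008 on day 3. They were 1559, 1507, 1355 and 1191 on day 5, so that Dio2 was highest on day 3 and not on day 5. It fell 1.36-fold over that step (log2 -0.45 ± 0.10, edgeR adjusted p = 0.00211) and 1.73-fold more to day 7. On days 10, 12 and 14 its counts were 939 to 1095, 329 to 435 and 511 to 699. The fall to day 12 was 2.87-fold (log2 -1.52 ± 0.11, edgeR adjusted p = 1.37e-11) and the rise to day 14 was 1.69-fold (adjusted p = 4e-06). The day 12 libraries of Dio2 were all above those of day 0, and those of day 14 stayed below those of days 3, 5, 7 and 10. Dio2 overlaps Gm26512 on the other strand.

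Ppargc1a (chr5:51454250-51567726, minus strand) encodes a coactivator of mitochondrial biogenesis. It was low, with counts between 216 and 585 in the 28 libraries and means between 0.41 ± 0.035 FPKM (SD, n = 4) on day 12 and 0.84 ± 0.14 FPKM on day 5. Neighbouring days in the order of its levels always overlapped. It fell 1.61-fold from day 5 to day 7 (log2 -0.69 ± 0.15, edgeR adjusted p = 0.00115). From day 10 to day 12 it fell 1.38-fold (log2 -0.46 ± 0.16, edgeR adjusted p = 0.0217), but without Day10 replicate 1, Day10 replicate 2, Day12 replicate 1 or Day12 replicate 2 the adjusted p lay between 0.0511 and 0.0720. It also missed the threshold without composition normalisation (adjusted p = 0.0705) and in limma on log2(FPKM + 1) and log2(FPKM + 0.1) (log2 -0.12 and -0.30, adjusted p = 0.142 and 0.107). The return on day 14 did not pass the test (log2 0.15 ± 0.16, adjusted p = 0.477).

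Zic1 (chr9:91358058-91365810, minus strand), a zinc finger transcription factor often used to mark classical brown fat, took another course. Zic1 counts began at 882, 1166, 1187 and 746 (day 0). They were 612, 522, 539 and 471 in the day 3 libraries and 1532, 1357, 1500 and 1390 in those of day 12. On day 14 they were 597, 640, 591 and 594. Zic1 was thus high on the day on which Ucp1 was lowest among the wound days, and low on day 3. It rose 1.69-fold from day 3 to day 5 (edgeR adjusted p = 5.19e-07), as Ucp1 did, and fell 2.28-fold from day 12 to day 14 (log2 -1.19 ± 0.09, adjusted p = 6.7e-11). The step from day 10 to day 12 was -0.01 ± 0.09 on the log2 scale, with a sign that changed with the scaling. The rise from day 5 to day 7 (log2 0.27 ± 0.09, adjusted p = 0.0228) no longer passed without Day5 replicate 1 (adjusted p = 0.0589), Day5 replicate 3 (0.0762) or Day7 replicate 1 (0.0794). Zic1 overlaps Zic4 on the other strand. The summed fibroblast markers had medians of 2121, 3260, 4597, 4269, 4098 and 1646 FPKM on days 3, 5, 7, 10, 12 and 14. On day 0, Zic1 counts were higher in replicates 2 and 3, the libraries with the higher fibroblast sums, than in replicates 1 and 4. The part of tissue make-up in the course of Zic1 was not tested.

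Cidea, a lipid droplet protein enriched in brown and beige fat cells, was abundant already on day 0, with counts of 3106, 2812, 3045 and 3895. On day 5 they were 13753, 13644, 14066 and 15784. On day 10 they were 7818, 8125, 8095 and 8047, on day 12 2228, 1909, 2063 and 1782, and on day 14 8624, 8936, 7936 and 7364. The day 12 libraries lay below all others, those of day 0 included. Cidea fell 4.39-fold to day 12 (log2 -2.13 ± 0.11, edgeR adjusted p = 1.26e-14) and rose 4.31-fold to day 14 (log2 2.11 ± 0.11, adjusted p = 4.41e-14). Its mean was 71.4 ± 13.7 FPKM (SD, n = 4) on day 0, 309 ± 24.4 on day 5 and 42.5 ± 4.12 on day 12.

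Otop1 and Kcnk3 encode ion channels, and both were close to Ucp1 in their course. Otop1 (chr5:38275972-38304217, plus strand) encodes otopetrin, a proton channel that is found in brown fat as well as in taste cells and the inner ear. The day 0 libraries held 19, 27, 26 and 43 counts, those of day 5 held 1712, 1859, 1633 and 1832, and those of day 12 held 52, 66, 50 and 60. Day 14 brought them to 858, 987, 824 and 682. The day 12 counts lay just above those of day 0, the ranges overlapped after normalisation, and all other days lay above both. Otop1 fell 13.3-fold from day 10 to day 12 (log2 -3.74 ± 0.14, edgeR adjusted p = 2.51e-17) and rose 15.4-fold to day 14 (log2 3.94 ± 0.14, adjusted p = 9.21e-18). Its rise of 1.29-fold from day 3 to day 5 (adjusted p = 0.0102) was lost without Day3 replicate 1 (log2 0.27, adjusted p = 0.0853).

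Kcnk3 (chr5:30588170-30625271, plus strand) encodes an acid-sensitive background potassium channel. Kcnk3 counts began at 90, 136, 175 and 66 (day 0). As for Adrb3, they were higher in replicates 2 and 3, the libraries with the higher fibroblast sums, and the part of tissue make-up was not tested. Day 5 gave 3137, 3331, 3176 and 3201, and day 12 gave 276, 233, 300 and 299. The counts were 1527, 1625, 1508 and 1332 on day 14. The day 12 libraries were above those of day 0 and below those of all other days. Kcnk3 fell 5.07-fold to day 12 (log2 -2.34 ± 0.13, edgeR adjusted p = 1.25e-13) and rose 5.67-fold to day 14 (log2 2.50 ± 0.13, adjusted p = 1.08e-13). Gm9899 overlaps it on the other strand.

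Cox8b and Cox7a1 encode subunits of cytochrome c oxidase (complex IV of the respiratory chain) in the isoforms of heart, skeletal muscle and brown fat. Cox8b (chr7:140898945-140900446, minus strand) had counts of 2587, 2030, 1927 and 2774 on day 0 and 4703, 5524, 5841 and 6406 on day 3. Day 10 gave 3401, 3508, 3956 and 3408, day 12 only 1079, 1184, 1154 and 1036, and day 14 again 5156, 4710, 3772 and 3580. It fell 3.51-fold to day 12 (log2 -1.81 ± 0.14, edgeR adjusted p = 2.69e-11) and rose 4.06-fold to day 14 (log2 2.02 ± 0.14, adjusted p = 6.42e-12). Days 3, 5, 7 and 14 followed each other in level with overlapping libraries. The step from day 3 to day 5 did not pass the test (log2 -0.31 ± 0.13, adjusted p = 0.0826), but passed without Day3 replicate 1 (adjusted p = 0.0247), without Day5 replicate 4 (adjusted p = 0.0451) or when only the 8 libraries of those days were fitted (adjusted p = 0.0356).

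Cox7a1 (chr7:30184144-30186078, plus strand) had counts of 1293, 959, 1076 and 1215 on day 0. The day 7 libraries held 1807, 2355, 2003 and 2775, and the day 12 libraries 377, 442, 362 and 349. On day 14 they were 1946, 1799, 1466 and 1307. The day 12 libraries were the lowest of the series. Cox7a1 fell 3.63-fold from day 10 to day 12 (log2 -1.86 ± 0.14, edgeR adjusted p = 4.47e-11) and rose 4.47-fold to day 14 (log2 2.16 ± 0.15, adjusted p = 5.2e-12).

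Both genes are also muscle genes, so the muscle markers are set beside them. The summed level of 13 skeletal muscle markers ranged over the 4 libraries from 15552 to 25907 FPKM on day 0 and from 3114 to 4024 FPKM on day 3, when 12 of the 13 were called lower than on day 0. Over the same interval all 4 libraries of Cox8b and of Cox7a1 moved above those of day 0. On days 10, 12 and 14 the muscle sum ranged from 7369 to 8973, from 5858 to 6583 and from 4207 to 4868 FPKM. From day 10 to day 12, the step in which Cox8b and Cox7a1 fell, 10 of the 13 muscle markers fell and none rose (median log2 -0.39). The sum did not return on day 14, when 9 of the 13 markers fell, 1 rose, and Acta1 fell by 0.37 ± 0.13 on the log2 scale (edgeR adjusted p = 0.0169). Tnnt3 and Mylpf, a troponin and a myosin light chain of fast fibres and the next most abundant of the markers, fell by 0.46 ± 0.12 and 0.54 ± 0.13 (adjusted p = 0.00237 and 0.00143). The muscle isoform Cox6a2 of another complex IV subunit fell by 0.59 ± 0.15 (adjusted p = 0.00164) in the step in which Cox8b and Cox7a1 rose. Within day 0 the muscle sum was 23832 and 25907 FPKM in replicates 1 and 4 against 15552 and 16136 FPKM in replicates 2 and 3. Cox8b was also higher in the first pair (183 and 208 against 138 and 135 FPKM), and so was Cox7a1 (72.0 and 72.0 against 51.5 and 59.5 FPKM). How much of the level of Cox8b and Cox7a1 came from muscle was not tested.

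The isoforms Cox8a and Cox7a2, which most other tissues use, gave a comparison within each library. The ratio of Cox8b to Cox8a in FPKM ranged from 0.57 to 0.83 on day 0, from 1.02 to 1.46 on day 7, from 0.27 to 0.30 on day 12 and from 0.56 to 0.78 on day 14. The ratio of Cox7a1 to Cox7a2 ranged from 0.43 to 0.58 on day 0, from 0.72 to 0.93 on day 7, from 0.14 to 0.17 on day 12 and from 0.41 to 0.53 on day 14. In both pairs the day 12 libraries lay below those of every other day. Over the step to day 12, Cox8a fell by 0.44 ± 0.07 and Cox7a2 by 0.20 ± 0.08 on the log2 scale (edgeR adjusted p = 5.88e-06 and 0.0456).

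**Figure D3:**
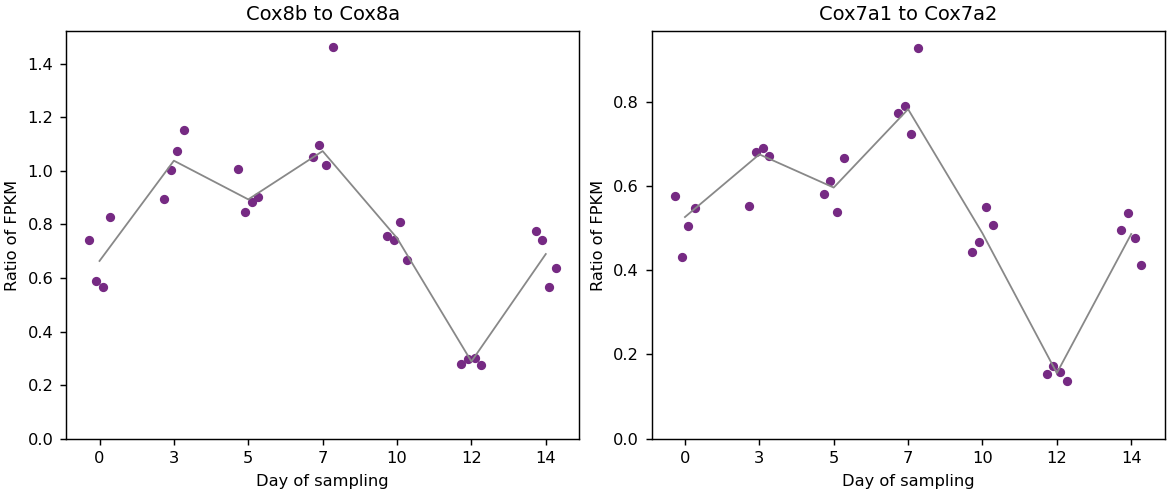
Ratio of Cox8b to Cox8a (left) and of Cox7a1 to Cox7a2 (right) in FPKM by day, with 1 point per library, 4 libraries a day, and a line through the day medians. On day 12 the ratios run from 0.27 to 0.30 and from 0.14 to 0.17, below every other day.

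Of the 13 complex IV subunits, Cox8b and Cox7a1 included, 13 fell from day 10 to day 12 and 12 rose from day 12 to day 14, with Cox6a2 as the exception. The median log2 change of the list was -0.47 and then 0.71, against -0.02 and -0.04 for all genes. Cox4i1, Cox6b1 and Cox6a1 were its most abundant genes per length. They fell by 0.47 ± 0.07, 0.46 ± 0.07 and 0.47 ± 0.07 to day 12 and rose by 0.63 ± 0.07, 0.75 ± 0.07 and 0.84 ± 0.07 to day 14 on the log2 scale. The changes of Cox8b and Cox7a1 were larger in size than those of these 3 genes in both steps.

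Markers of all fat cells, white ones included, were the next reference. The summed level of 14 adipocyte markers ranged from 7751 to 9972 FPKM on day 0, from 8937 to 10198 on day 5, from 7000 to 7485 on day 12 and from 10665 to 11371 on day 14. Against day 0 the list was nearly level, with a median log2 change between -0.26 on day 12 and 0.22 on day 14 and at most 1 gene called in either direction on any day. Fabp4, a fatty acid carrier that was the most abundant of them, was that gene on days 3 and 5 for increases, and Lep, the hormone leptin, on day 5 for decreases. From day 10 to day 12, 12 of the 14 fell and 1 (Lep) rose, and from day 12 to day 14, 14 of 14 rose. Car3 and Cfd, a carbonic anhydrase and the secreted protease adipsin, were the next most abundant after Fabp4. They fell by 0.54 ± 0.07 and 0.31 ± 0.07 to day 12 and rose by 0.43 ± 0.07 and 0.56 ± 0.07 to day 14. Adipoq fell by 0.50 ± 0.06 and then rose by 0.67 ± 0.06 on the log2 scale (edgeR adjusted p = 2.58e-07 and 1.83e-09).

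Relative to the adipocyte sum, the ratio of Ucp1 moved at every step. It ranged from 0.107 to 0.118 on day 5, from 0.0186 to 0.0208 on day 10, from 0.000491 to 0.000991 on day 12 and from 0.0260 to 0.0361 on day 14. The ratio fell 29.8-fold from day 10 to day 12 (log2 -4.90 ± 0.22, SE) and rose 46.7-fold to day 14 (log2 5.55 ± 0.24). Each of the 5 steps gave p = 0.0286 in an exact two-sided permutation test of 4 against 4 libraries (also after adjustment over the 5 steps), which is the smallest p that this design allows. The fall and the rise of Ucp1 were therefore larger than those of the summed adipocyte markers.

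Against Cidea, another gene of brown and beige fat cells, the ratio of Ucp1 ranged from 0.00137 to 0.0114 on day 0, from 3.31 to 3.50 on day 5, from 1.03 to 1.12 on day 10 and from 0.0721 to 0.175 on day 12. It was between 1.75 and 2.07 on day 14. The ratio fell 9.47-fold from day 10 to day 12 (log2 -3.24 ± 0.27) and rose 16.8-fold to day 14 (log2 4.07 ± 0.27), again with an exact permutation p of 0.0286 at each of the 5 steps before and after adjustment. On day 14 the ratio lay above those of days 7 and 10 and below those of days 3 and 5. Which cells carried Cidea was not tested, so the ratio is not a level of Ucp1 per thermogenic fat cell.

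**Figure D4:**
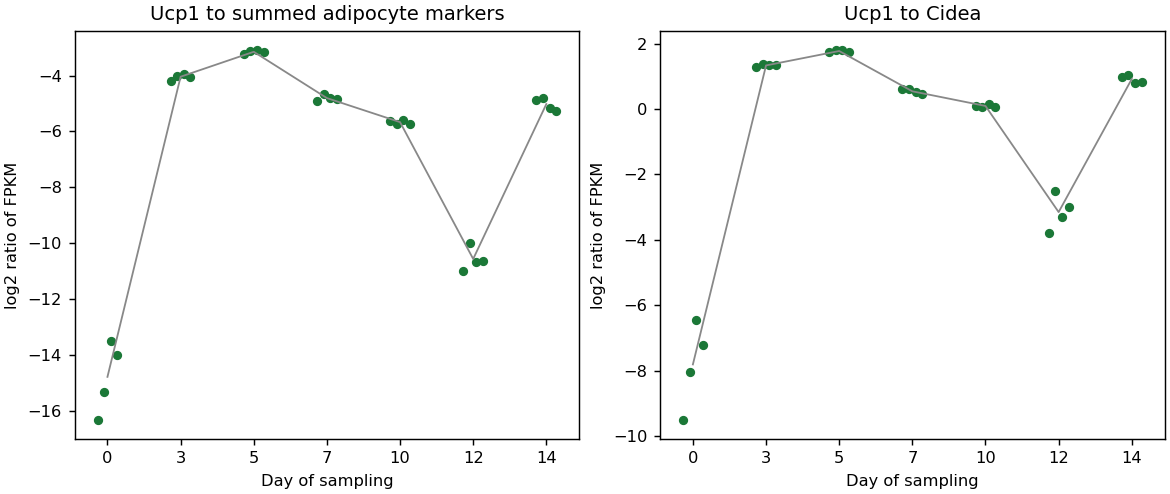
Log2 ratio of Ucp1 to the summed adipocyte markers (left) and to Cidea (right) in FPKM by day, with 1 point per library, 4 libraries a day, and a line through the day means. Both ratios are highest on day 5, and on day 12 both lie below every other wound day and above day 0.

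Among relatives of Ucp1 in the family of mitochondrial carriers, Ucp2, which is widely expressed and abundant in immune cells, took another course. It averaged 213 ± 16.4 FPKM (SD, n = 4) on day 10, 447 ± 8.59 on day 12 and 691 ± 50.8 on day 14. It thus rose over both steps, by 0.98 ± 0.09 and 0.65 ± 0.09 on the log2 scale (edgeR adjusted p = 2.44e-09 and 2.78e-06), including the step in which Ucp1 fell 40.4-fold. Ucp3, a carrier of muscle and brown fat, averaged 11.2 ± 0.58 FPKM on day 10, 5.98 ± 0.61 on day 12 and 11.4 ± 0.98 on day 14, and fell and rose with Ucp1 (log2 -0.99 ± 0.21 and 0.95 ± 0.21, adjusted p = 0.000382 and 0.000549). Slc25a30 did not pass from day 10 to day 12 and fell by 0.55 ± 0.13 to day 14 (adjusted p = 0.000868). Of the 6 family members, Ucp1 included, 2 fell and 1 rose to day 12, and 3 rose and 1 fell to day 14. In FPKM, the ratio of Ucp1 to Ucp2 was between 4.34 and 4.67 on day 5, fell to 0.00767 to 0.0156 by day 12 and stood at 0.393 to 0.604 by day 14.

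Other genes of thermogenic fat mostly shared the trough. Of 16 listed, 15 were in the table and 14 were tested. From day 10 to day 12, 12 of the 14 fell and none rose, and from day 12 to day 14, 10 rose and none fell. The median log2 change was -0.95 and then 0.80. Prdm16, Ebf2 and Lhx8 were among those that fell to day 12, and were called in neither direction from day 12 to day 14. Fabp3, a fatty acid carrier of muscle and brown fat, averaged 136 ± 10.9 FPKM (SD, n = 4) on day 5 and 62.7 ± 5.66 on day 10. It averaged 13.9 ± 1.45 FPKM at day 12 and 67.1 ± 11.0 at day 14, and fell by 2.26 ± 0.15 on the log2 scale to day 12 (edgeR adjusted p = 2.27e-12). Esrra, a nuclear receptor of mitochondrial genes, fell by 0.45 ± 0.08 (adjusted p = 2.72e-05). Elovl3, which elongates fatty acids in brown fat and also in the skin's sebaceous glands, did not pass in that step (log2 -0.14 ± 0.11, adjusted p = 0.331) and rose by 0.55 ± 0.11 to day 14. Against day 0, between 1 and 5 of the 14 were called higher on days 3 to 10 and on day 14, and none on day 12, when Esrrg and Fabp3 were called lower.

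Of 6 beige fat markers tested, 3 rose and none fell from day 3 to day 5, 2 rose and 1 fell from day 5 to day 7, and 3 rose and 1 fell from day 7 to day 10. In the step to day 12 and again in that to day 14, 1 rose and 2 fell. Slc27a1, a fatty acid transporter and the most abundant of them, was called in neither of these last steps. Tbx1, a transcription factor, rose at all 5 steps, from 0.46 ± 0.16 FPKM (SD, n = 4) on day 3 to 16.0 ± 0.96 on day 14. Tmem26, a membrane protein, peaked at 5.77 ± 0.27 FPKM on day 10 and fell by 2.48 ± 0.12 to day 12 and by 1.58 ± 0.14 more to day 14 on the log2 scale (edgeR adjusted p = 1.05e-14 and 4.43e-10). Neither had its highest level on day 5.

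The catecholamine and cyclic AMP pathway was split. Of 11 genes tested, 6 fell and 1 rose from day 10 to day 12, and 5 rose and 3 fell from day 12 to day 14. Gnas, the stimulatory G protein that couples adrenergic receptors to cyclic AMP, fell by 0.54 ± 0.05 and rose by 0.25 ± 0.05 on the log2 scale (edgeR adjusted p = 4.79e-09 and 0.000433). Prkar2b, the regulatory subunit of protein kinase A that prevails in fat, fell by 1.04 ± 0.08 and rose by 1.29 ± 0.08 (adjusted p = 1.09e-10 and 3.49e-12). Prkaca, the catalytic subunit, fell by 0.33 ± 0.05 and rose by 0.37 ± 0.05. Th, which makes the precursor of noradrenaline in sympathetic nerves, was low throughout, at 73 to 135 counts per library on day 0 and 6 to 66 on the later days, and was called lower than on day 0 on 5 of the 6 days, day 10 excepted. Most Th mRNA resides in nerve cell bodies outside the skin.

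Mitochondrial fatty acid oxidation, which feeds thermogenesis, fell and rose over the same steps. Of 11 genes, 10 fell from day 10 to day 12 (median log2 -0.88) and 10 rose from day 12 to day 14 (median 1.07), and none moved the other way. Acaa2, Acadl and Acadm, enzymes of the beta-oxidation cycle, fell by 0.80 ± 0.10, 1.17 ± 0.07 and 1.23 ± 0.08 on the log2 scale. Their rise to day 14 was 1.21 ± 0.10, 1.32 ± 0.07 and 1.28 ± 0.08 (edgeR adjusted p = 4.44e-10, 2.26e-13 and 1.59e-12).

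**Figure D5:**
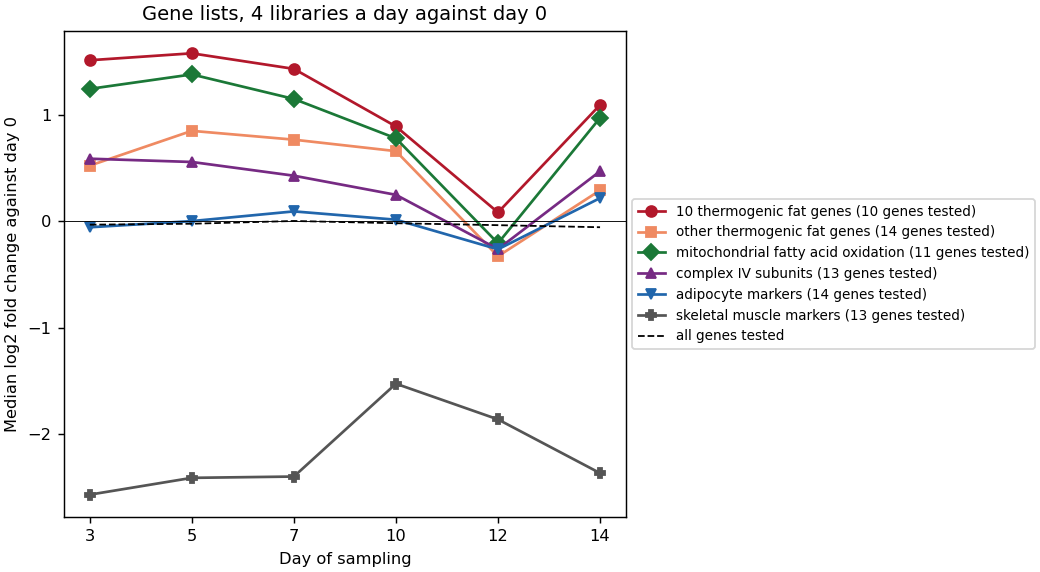
Median log2 fold change against day 0 of 6 gene lists by day, with the median of all 18107 genes tested as a dashed line, each from 4 libraries a day against 4 of day 0. The thermogenic, oxidation, complex IV and fat cell lists are all lowest on day 12, while the muscle markers lie below -1.5 on every day.

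The genes most like Ucp1 were sought by the Pearson correlation of log2 CPM (counts normalised for library size and composition), as a description, since libraries of 1 day share the tissue state and are not independent points. Over the 28 libraries, Otop1 (r = 0.98) and Kcnk3 (r = 0.98) came first and second among all tested genes. The nearest genes outside the 10 were Slc27a2 (0.97), which activates very long chain fatty acids, then Prkar2b, 4931406C07Rik, Cpn2, Ahcyl1, Gys2, Ephx2, Gpat4, Cd1d1 and Acaa2 (0.95). Dio2 reached 0.92, Cidea 0.86, Cox8b 0.74, Adrb3 0.64, Cox7a1 0.62, Ppargc1a 0.27 and Zic1 -0.35. Slc27a2 resembled Ucp1 at both ends, with 13 to 26 counts per library on day 0 and 1191 to 1308 on day 5, then 39 to 52 at day 12 and 852 to 1082 at day 14.

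Over the 24 wound libraries alone the order shifted. Otop1 reached r = 0.995, Kcnk3 0.99, Cidea 0.98 and Cox8b and Cox7a1 0.95 each, while Dio2 dropped to 0.81 and Zic1 stood at -0.48. The nearest genes outside the 10 were Dlst (0.99), a subunit of a Krebs cycle enzyme, Plin5, a lipid droplet protein that contacts mitochondria, and Acadvl, Eci1, Cyc1, Acadm, Hadhb, Cpt2 and Uqcrfs1 (0.97), all of them genes of mitochondrial oxidation. Dlst changed far less than Ucp1, from 86.4 ± 1.87 FPKM (SD, n = 4) on day 10 to 54.2 ± 2.30 on day 12 and 98.2 ± 6.96 on day 14. Plin5 changed more, from 6.40 ± 0.38 to 0.95 ± 0.084 and 8.33 ± 1.49 FPKM.

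Within days the likeness was weaker. After each library was expressed as its deviation from the mean of its day, Otop1 still led with r = 0.76 over the 24 wound libraries, followed by LOC118568160 (0.74), Plin5 (0.73), Mapkapk5, Cep95, Znrf1, Fabp3, Rimkla, Gm6377, Acaa2 and Lekr1 (0.70). Cox7a1 stood at 0.62 and Cox8b at 0.56, but Kcnk3 at 0.0037 and Cidea at 0.23. Otop1 was the gene nearest to Ucp1 in all 3 comparisons, which share libraries and so are not separate results. Some of the genes nearest within days were close to the floor, such as Rimkla, with at most 21 counts in a library. How high r comes by chance among so many genes was not tested.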

How the data were processed

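Bulk RNA-seq of wound-site skin was available as a deposited table of raw read counts per gene and a deposited table of FPKM. The authors trimmed reads with fastp and used the mm10 build, per the labels, and the aligner, the counter and the annotation are not given in the sources used here. The FPKM values that the authors deposited equalled each count divided by gene length and by the library's total count, with no further scaling.

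Counts of the 28 libraries were fitted together with edgeR 4.0.16 (R 4.3.3), with TMM normalisation, the default filter on low counts, day as the only factor and quasi-likelihood tests with 21 residual degrees of freedom. P-values were adjusted by Benjamini-Hochberg over the 18107 genes tested. Of the 29068 genes, 347 had no count in any library. A gene was called against day 0 at an adjusted p under 0.05 and a log2 fold change over 1.5 (the limit used in the study), and between wound days at an adjusted p under 0.05. A fold of n in a fall is the earlier over the later level. Ratios of FPKM within a library were compared by exact two-sided permutation tests. Alternatives used DESeq2 1.42.0, limma 3.58.1 on log2(FPKM + 1) and log2(FPKM + 0.1), other scalings, filters and call rules, a replicate block, and each library left out in turn. The edgeR code was tested on simulated counts.

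The 10 genes, the gene lists (other thermogenic fat genes, beige fat, uncoupling proteins, adipocytes, catecholamine and cAMP signalling, fatty acid oxidation, complex IV, skeletal muscle, fibroblasts, keratinocytes, macrophages, endothelium, smooth muscle and pericytes) and the tests were chosen with earlier results of these data known. Of each list the 3 genes with the highest mean FPKM are named, with Ucp2, Ucp3, Cox8a and Cox7a2 as relatives and the 10 genes nearest to Ucp1 in each correlation. Of those, 1 gene over the wound libraries, and 1 further marker list, are not reported here. Cox6a2, Acta1 in single comparisons, Esrrg, Prdm16, Ebf2, Lhx8, Lep, Th and Adipoq were named after their values were seen. Gene positions are from GENCODE (GRCm38). Replicates of a day differed by more than counting noise, with a lowest median chi-square of 1.47 for a pair against 0.455, so all 28 libraries were kept.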

Additional observations from a re-analysis of the deposited data

Results flagged for a closer look

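Within a day, 4 values of the 10 genes lay far from the other 3 libraries by Dixon's test on log2 CPM. The 10 genes and 2 ratios (Ucp1 to the adipocyte sum and to Cidea) gave 84 groups of 4 libraries, in which no ratio stood out, and chance alone gives about 4.2 such values. Ucp1 on day 3 was 9.51 in replicate 1 against 9.88 to 9.94 in the others, and the same library decided the call of Otop1 between days 3 and 5 given above. Ppargc1a on day 5 was 3.41 in replicate 4 against 3.90 to 3.95. Cox8b on day 10 was 6.66 in replicate 3 against 6.40 to 6.44. Otop1 on day 10 was 4.10 in replicate 4 against 4.14 to 4.15, a gap of less than 0.05 on the log2 scale.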

How the results depend on the processing

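The changes of Ucp1 between wound days and the joint test over the wound days kept their direction and their side of the threshold under every alternative that gave a value for them. Both Ucp1 ratios kept their direction, and since their groups do not overlap, their p-value cannot rise when a library is left out and says nothing about stability. Counts of called genes moved with the call rule. With no fold limit against day 0, 8, 9, 8, 7, 5 and 8 of the 10 genes were called higher on days 3, 5, 7, 10, 12 and 14, where 31.8%, 29.0%, 25.6%, 23.5%, 21.7% and 28.2% of all genes were, and 1, 1, 4 and 2 were called lower on days 3, 10, 12 and 14, where 34.8%, 26.9%, 25.6% and 34.5% of all genes were. With at least 10 counts asked of every library, Ucp1 (6 counts in a day 0 library) was not tested and the count of genes higher on day 12 became 0. With a log2 fold change over 1.5 asked between wound days, the counts higher and lower became 0 and 0 for day 5 against day 3 and 0 and 1 for day 7 against day 5, and the counts lower became 0 for day 10 against day 7 and 0 for day 14 against day 12 (between 0.607% and 2.98% of all genes in these comparisons). Under that limit 7 of the 10 genes were called lower from day 10 to day 12 (2.36% of all genes) and 6 higher from day 12 to day 14 (0.712%). Against day 0, Dio2 came under the fold limit on days 7 and 14 with limma on log2(FPKM + 1) (log2 1.47 and 1.15), and Adrb3 passed it on day 3 in 4 of 8 fits with a library left out (1.51 to 1.64). From day 7 to day 10, 1 gene (Dio2) was called higher by limma on log2(FPKM + 1) and 2 (Dio2 and Zic1) by edgeR on the 8 libraries of those days, which also called Adrb3 lower (log2 -0.30, adjusted p = 0.00137). Leaving out single libraries, the count higher from day 5 to day 7 ranged from 0 to 1. Small changes turned direction. Adrb3 on day 12 against day 0 (log2 -0.18) was 0.038 with limma on log2(FPKM + 1) and 0.052 on log2(FPKM + 0.1). Zic1 from day 10 to day 12 was 0.077 without composition normalisation, and 0.065 and 0.075 with the same limma settings. With single libraries left out, Zic1 ranged from -0.056 to 0.022 in that step and from -0.16 to 0.0046 on day 5 against day 0, Adrb3 ranged from -0.098 to 0.27 on day 10 and from -0.35 to 0.011 on day 12 against day 0, and Ppargc1a ranged from -0.076 to 0.17 from day 3 to day 5. The causes were not tested. Same-numbered libraries were no more alike than others (correlation of deviations from -0.076 to 0.18, median -0.00091, 8 of 28 nearest to their own number), and the replicate block changed 0 of 133 results, with 8 genes lower from day 10 to day 12 as before. Ucp1 and Otop1 both had low day 0 counts. The SE of the log2 fold change of day 3 against day 0 was 0.29 for Ucp1 and 0.15 for Otop1.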

Other observations

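Markers of other cell types in the same samples are given as values, without a bearing on the 10 genes having been tested. The summed level of 4 macrophage markers (led by Cd68, Csf1r and Mrc1) had medians of 259, 532, 222 and 93.7 FPKM on days 0, 3, 12 and 14, and 4 of 4 fell from day 12 to day 14. The 4 fibroblast markers (led by Col1a1, Dcn and Lum) also fell from day 12 to day 14, from a median sum of 4098 to 1646 FPKM. Of 4 endothelial markers (led by Pecam1, Cdh5 and Tek), 3 fell from day 10 to day 12 and 1 fell from day 12 to day 14. Of 4 smooth muscle and pericyte markers (led by Acta2, Tagln and Rgs5), 3 fell to day 12 and 3 rose to day 14. Of 4 keratinocyte markers (led by Krt14, Krt5 and Krt1), 1 rose and 1 fell to day 12, and 1 rose and 2 fell to day 14.

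Bmp8b, a secreted factor of thermogenic fat that was noticed after its values were seen, was detected mainly on day 5, with 108 to 126 counts per library against 0 to 15 on all other days. It rose by 3.85 ± 0.51 from day 3 and fell by 4.03 ± 0.52 to day 7 on the log2 scale (edgeR adjusted p = 2.1e-06 and 7.05e-07).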
